A study of Mus musculus with 20 samples.

Results

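Aortic gene expression after proton radiation was compared with that after gamma radiation at the low doses of the series, 5, 10, 25 and 50 cGy. The comparison used 8 of the 20 mice, 4 per radiation type with 1 mouse at each dose, and each proton mouse was paired with the gamma mouse of the same dose. The pair at 0 cGy, 1 mouse placed in the proton beam line and 1 in the gamma irradiator without exposure, gave the difference without irradiation. All mice were wildtype male C57BL/6 of 10 to 12 weeks, were restrained awake in chambers, received a whole-body exposure and were killed 4 hours later. The thoracic aorta was taken whole and its polyadenylated RNA was sequenced. Protons came from a cyclotron and gamma rays from a caesium source with a lower dose rate. Radiation type, irradiator and dose rate thus cannot be told apart. With 1 mouse per dose and type, the comparison over the 4 doses was tested against the spread of the pair differences around their mean. This spread holds mouse-to-mouse variation and any change with dose together. For each gene it was drawn towards a trend over all genes, so an SE below is not that of the gene's own 4 pairs alone.

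Ionising radiation breaks DNA, and damaged DNA stabilises the transcription factor p53, which switches on genes of cell cycle arrest (Cdkn1a), apoptosis (Bax, Aen) and its own negative feedback (Mdm2). Immediate early genes such as Fos and Dusp1 respond within minutes to growth factors, stress and handling, and heat shock chaperones such as Hspa8 and Hsp90aa1 keep other proteins folded under the control of heat shock factor. The aortic wall is mostly smooth muscle, lined by endothelium and surrounded by fat, nerve and connective tissue that stay partly attached on dissection.

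The 10 libraries of this comparison held 6056303 to 6057352 counts each, with 15800 to 16408 genes detected, since the authors had resampled them to a common depth, and 3 counts amounted to 4.95e-05% of a library. Of 21078 genes, 12977 had a mean count of 5 or more over the 8 irradiated mice and were tested. Values below are normalized counts (counts divided by the library's relative size, with the trimmed mean of M-values, TMM, as scaling) unless a log2 difference is named, and differences are proton minus gamma. The label of the tissue held: Acta2, the smooth muscle actin, ranged from 120759 to 166723 over the 10 mice and Myh11, smooth muscle myosin, from 50698 to 70069. Of 16 lymphocyte markers, 1 passed the expression filter.

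No gene passed an adjusted p of 0.1 for a difference between radiation types at 5 to 50 cGy. The edgeR quasi-likelihood test with dose as a block called 0 of 12977 genes higher (0%) and 0 lower (0%) in the proton mice. At an unadjusted p under 0.05 it gave 305 higher (2.35%) and 472 lower (3.64%), and DESeq2 at an adjusted p of 0.1 called 3 higher and 42 lower. DESeq2 gives no adjusted p to genes below a mean count that it sets itself, so its calls do not cover all genes tested. Sfrp4, higher in the proton mice, was left out in this way at an unadjusted DESeq2 p of 1.97e-07. The balance of the 2 directions depended on the scaling: with library totals in place of TMM, 576 genes were higher and 263 lower at an unadjusted p under 0.05. In the proton mouse of all 4 pairs, 765 genes (5.90%) were higher and 1113 (8.58%) were lower. With library totals in place of TMM these 2 counts were 1231 and 576. The 4 proton mice lay wholly above the 4 gamma mice in 187 genes (1.44%) and wholly below them in 309 (2.38%). An exact test that swaps the labels within 4 pairs cannot go below a two-sided p of 0.125, so no single gene was tested that way.

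Part of this direction was present without irradiation. Of the 765 genes higher in all 4 irradiated pairs, 62.5% were also higher in the proton mouse at 0 cGy, against 48.7% of all genes tested. Of the 1113 genes lower in all 4 pairs, 71.4% were also lower at 0 cGy, against 51.3% of all genes. In the 5 pairs at 75 to 200 cGy, which chose none of these genes, 55.3% of the values of the first set were higher and 57.7% of those of the second set were lower, against 49.8% and 50.2% over all genes.

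Of the 10 genes with the smallest p among those higher in all 4 pairs, Sfrp4 came first. It encodes a secreted Wnt antagonist (mm9 chromosome 13, 19714973 to 19724863, plus strand) and measured 575, 466, 796 and 540 in the proton mice at 5, 10, 25 and 50 cGy and 371, 246, 577 and 270 in the gamma mice. Every pair had more in the proton mouse, although the gamma mouse at 25 cGy overlapped the proton range. The log2 difference was 0.75 ± 0.10 (SE, 4 pairs, adjusted p = 0.236). At 0 cGy the order was opposite, with 520 in the proton mouse and 740 in the gamma mouse. Aspg, an asparaginase, had the largest difference of the 20 genes: 32.2, 55.6, 61.2 and 40.7 in the proton mice against 14.5, 16.6, 12.7 and 14.5 in the gamma mice, a log2 difference of 1.67 ± 0.25 (adjusted p = 0.249). The ranges did not overlap, and the pair at 0 cGy, at 43.8 and 19.9, differed in the same direction. Hist1h1c, a linker histone, measured 678, 477, 636 and 540 in the proton mice and 415, 306, 319 and 426 in the gamma mice (log2 difference 0.67 ± 0.10, adjusted p = 0.249), without overlap. It was also higher in the proton mouse at 0 cGy, at 622 against 412, and in 4 of 5 pairs at 75 to 200 cGy.

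The other 7 higher genes differed by less. Arhgef19 was higher by 0.56 ± 0.12 on the log2 scale and by 1.08 in the pair at 0 cGy, and it was the single gene of the 20 with the same direction in all 5 pairs at 75 to 200 cGy. Dixdc1, a Wnt pathway adaptor, differed by 0.50 ± 0.10, and Ly6c1, a surface protein of monocytes and endothelium, by 0.49 ± 0.10. Malat1, a nuclear long noncoding RNA, differed by 0.45 ± 0.09, and Tubb2a, a beta-tubulin, by 0.38 ± 0.08. Tgfbr3, the TGF-beta co-receptor betaglycan, differed by 0.32 ± 0.06, with 504 to 662 in the proton mice and 428 to 517 in the gamma mice. Scarb2, a lysosomal membrane protein, differed by 0.27 ± 0.06. Of the 10 higher genes, 8 had groups that did not overlap, against 1.44% of all genes. They were chosen by p and direction in these same mice, so this count is not independent evidence. In the pair at 0 cGy, 8 of the 10 had the same direction, with Sfrp4 and Ly6c1 the exceptions. At 75 to 200 cGy, 36 of their 50 pair values were higher. Ly6c1 was higher in 1 of the 5 pairs at 75 to 200 cGy.

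Among the 10 lower genes the smallest p was that of Dusp1, the phosphatase that switches off MAP kinases (mm9 chromosome 17, 26642535 to 26645464, minus strand). It measured 461, 412, 601 and 701 in the proton mice and 763, 879, 907 and 1071 in the gamma mice at the 4 rising doses. All proton mice lay below all gamma mice, and the log2 difference was -0.75 ± 0.09 (adjusted p = 0.236). Grip2, a scaffold protein, measured 1753, 1928, 1828 and 1718 in the proton mice and 2631, 2541, 2289 and 2473 in the gamma mice, again without overlap (log2 difference -0.46 ± 0.07, adjusted p = 0.249). It was also lower at 0 cGy, at 1547 against 2426, and in 4 of 5 pairs at 75 to 200 cGy. Scube3, a secreted glycoprotein, measured 5332, 6332, 5741 and 4978 in the proton mice and 7907, 8216, 7308 and 7727 in the gamma mice (log2 difference -0.48 ± 0.07). Its pair at 0 cGy was close, at 5954 and 6328.

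The remaining lower genes were 2310022B05Rik at -0.56 ± 0.09, Rcan2, which encodes an inhibitor of calcineurin, at -0.40 ± 0.06, Fbxl22, a muscle F-box protein, at -0.48 ± 0.08, and Zfp36l1, an mRNA decay factor, at -0.40 ± 0.07. Ypel2 differed by -0.38 ± 0.07, Wscd2 by -0.37 ± 0.06 and Schip1 by -0.36 ± 0.06. Adjusted p ranged from 0.236 to 0.337 over the 10 lower genes and from 0.236 to 0.397 over the 10 higher ones. Of the 10 lower genes, 8 had the same direction at 0 cGy, with Dusp1 and Zfp36l1 the exceptions, and 31 of their 50 values at 75 to 200 cGy were lower. Dusp1, Schip1 and Wscd2 were each lower in 2 of the 5 pairs at 75 to 200 cGy.

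**Figure D1:**
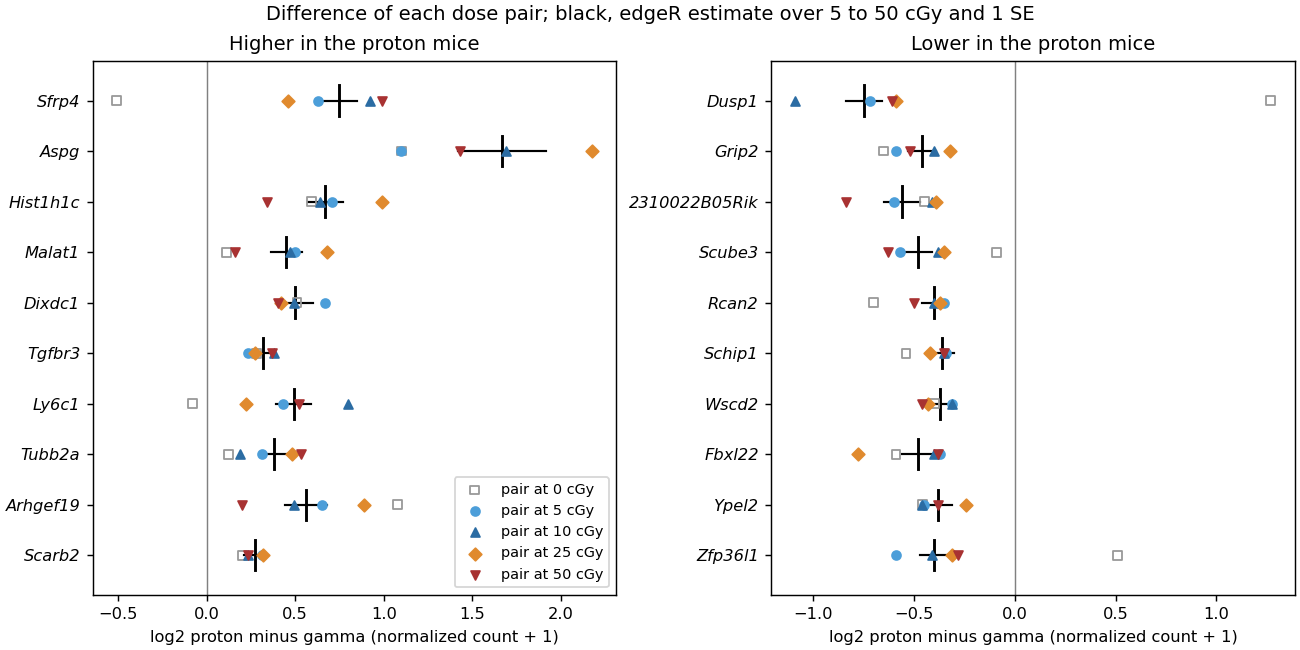
Log2 proton minus gamma difference (x axis, normalized count + 1) of each dose pair for the 10 higher (left) and 10 lower (right) genes; coloured symbols are the pairs at 5, 10, 25 and 50 cGy, the open square is the pair at 0 cGy, and the black tick and bar are the edgeR estimate and 1 SE. The open square lies on the far side of 0 for Sfrp4 and Ly6c1 on the left and for Dusp1 and Zfp36l1 on the right, and on the same side for the other 16 genes.

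Measured against the pair at 0 cGy, 1 gene passed the threshold. The edgeR test of the difference at 5 to 50 cGy less that at 0 cGy called 0 genes higher (0%) and 1 lower (0.00771%), with 217 higher (1.67%) and 287 lower (2.21%) at an unadjusted p under 0.05. The gene was Dusp1, whose proton mouse at 0 cGy held 995 and gamma mouse 412, the reverse of every pair at 5 to 50 cGy. The log2 pair differences were 1.27 at 0 cGy and -0.72, -1.09, -0.59 and -0.61 at 5, 10, 25 and 50 cGy, so the difference beyond 0 cGy was -2.02 ± 0.20 (adjusted p = 0.0669). At 75, 100, 125, 150 and 200 cGy they were -0.36, -0.3, 0.96, 0.16 and 0.68. Thus 3 of these 5 pairs had the direction of the pair at 0 cGy. The call rests on a single pair at 0 cGy, whose spread was taken from the irradiated pairs. It was lost without the pair at 5 cGy (adjusted p = 0.762), without the pair at 50 cGy (0.198), without robust variance estimation (0.338), without the dose block (0.994) and with all 20 libraries in the fit (adjusted p of 1), while the estimate stayed between -2.18 and -1.91 over the alternatives tried.

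Behind Dusp1 came 4 genes at an adjusted p of 0.553. Sfrp4, described above, differed by 1.25 ± 0.21 beyond 0 cGy. Zfp36l1 measured 1497 and 1053 in the proton and gamma mice at 0 cGy, and 768, 1169, 1368 and 1203 against 1159, 1553, 1693 and 1460 at the irradiated doses, a difference beyond 0 cGy of -0.90 ± 0.16. Rarb, a retinoic acid receptor, measured 210 and 68.6 at 0 cGy but 72.4 to 111 and 100.0 to 122 after irradiation (-1.84 ± 0.32). The transcript 4833442J19Rik measured 274 and 90.5 at 0 cGy but 118 to 171 and 137 to 160 after irradiation (-1.68 ± 0.27). For Rarb and 4833442J19Rik the irradiated mice of the types overlapped. At 0 cGy the proton mouse lay above all irradiated mice and the gamma mouse below all of them.

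Early response genes as a list held members of both directions. Of 24 genes tested, 3 were higher (12.5%) and 4 lower (16.7%) in all 4 pairs, against 5.90% and 8.58% of all genes. At an unadjusted p under 0.05, 3 were higher and 5 lower, against 2.35% and 3.64% of all genes. Their median log2 difference was -0.05, against -0.00 over all genes, and the pair medians were 0.46 at 0 cGy and 0.17, 0.04, -0.83 and 0.01 at the 4 doses. The sign of this median depended on the pairs included: it was 0.09 without the pair at 25 cGy, and -0.21, -0.09 and -0.24 without the pair at 5, 10 or 50 cGy. Fos, the prototype of the group, measured 34.2, 80.5, 99.7 and 177 in the proton mice and 103, 306, 580 and 192 in the gamma mice, against 253 and 69.6 at 0 cGy. All 4 irradiated pairs had less in the proton mouse, but the groups overlapped, and the log2 difference was -1.53 ± 0.51 (adjusted p = 0.817). Zfp36, which encodes the mRNA decay factor tristetraprolin, measured 370, 287, 292 and 355 in the proton mice and 442, 431, 499 and 463 in the gamma mice, without overlap (-0.50 ± 0.09, adjusted p = 0.337). At 0 cGy its order was reversed, at 430 and 331. Btg2, an antiproliferative p53 target, measured 349, 333, 408 and 464 in the proton mice and 401, 422, 518 and 607 in the gamma mice (-0.32 ± 0.06, adjusted p = 0.347), and was reversed too at 0 cGy, at 474 and 350. Ctgf, a matrix growth factor, was lower by 0.26 ± 0.10 in log2.

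The orphan receptors Nr4a2 and Nr4a3 went the other way. Nr4a2 measured 124, 56.6, 59.2 and 66.8 in the proton mice and 46.5, 44.6, 54.9 and 41.4 in the gamma mice, without overlap (0.65 ± 0.22, adjusted p = 0.718). Nr4a3 was higher in all 4 pairs as well (0.43 ± 0.16), although lower in the proton mouse at 0 cGy, at 55.5 against 100.4. Among the 4 low-dose pairs, both had their largest difference at 5 cGy.

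**Figure D2:**
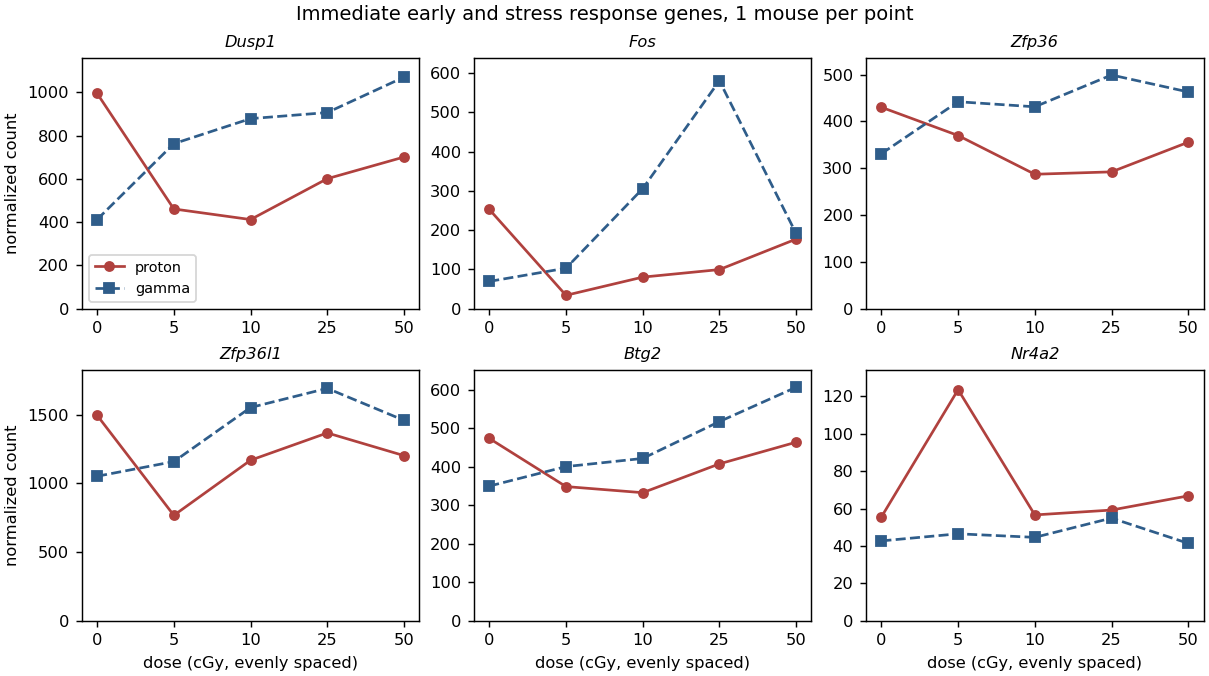
Normalized counts (y axis, from 0) of Dusp1, Fos, Zfp36, Zfp36l1, Btg2 and Nr4a2 by dose (x axis, cGy, evenly spaced), with 1 mouse per point, proton as circles on solid lines and gamma as squares on broken lines. In the first 5 genes the proton mouse lies above the gamma mouse at 0 cGy and below it at every dose from 5 to 50 cGy, while Nr4a2 is higher in the proton mouse at all 5 doses.

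Heat shock chaperones were lower in the proton mice more often than genes at large, and lower by more in the pair that was not irradiated. Of 17 chaperone genes tested, 15 had a negative log2 difference and 8 were lower in all 4 pairs (47.1%, against 8.58% of all genes). At an unadjusted p under 0.05, 7 were lower, against 3.64% of all genes. The members share libraries and are not independent. None was higher in all 4 pairs or passed an adjusted p of 0.1. The median log2 difference was -0.16 over the 4 doses. The pair medians were -0.11, -0.11, -0.27 and -0.28 at 5, 10, 25 and 50 cGy and -0.46 at 0 cGy. With library totals in place of TMM, 7 of the 17 were lower in all 4 pairs and the median was -0.12. The median was -0.07 without the pair at 25 cGy, -0.05 without the pairs at 25 and 50 cGy, and -0.18, -0.20 and -0.17 without the pair at 5, 10 or 50 cGy alone.

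Hspa8, the constitutive Hsp70 chaperone, measured 6334, 5841, 3887 and 3796 in the proton mice and 7310, 7568, 8279 and 5297 in the gamma mice, a log2 difference of -0.54 ± 0.14 (adjusted p = 0.621). In the pair at 0 cGy it measured 4948 and 9973. Hsp90aa1, the inducible Hsp90, measured 2328, 2413, 1931 and 1736 in the proton mice and 2955, 2833, 2649 and 2212 in the gamma mice (-0.35 ± 0.06, adjusted p = 0.337), against 1782 and 3517 at 0 cGy. Hspb1, the small heat shock protein Hsp27, measured 4119, 4055, 2686 and 2202 in the proton mice and 5420, 4959, 3856 and 4815 in the gamma mice (-0.58 ± 0.14, adjusted p = 0.537), against 1981 and 4738 at 0 cGy. For all 3 genes the groups overlapped across doses, while each pair had less in the proton mouse.

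Hsph1, an Hsp110 co-chaperone, differed by -0.33 ± 0.07, and the mitochondrial co-chaperonin Hspe1 by -0.26 ± 0.09. Hsp90ab1, the constitutive Hsp90, differed by -0.22 ± 0.07, and Cryab, alpha-B crystallin, by -0.19 ± 0.07. Hspb1 and Hsp90aa1 were lower in the proton mouse in all 5 pairs at 75 to 200 cGy as well, and Hspa8, Hsp90ab1 and Hsph1 in 4 of 5. Hspe1 and Cryab were lower in 2 of these 5 pairs and higher in 3. The stress-inducible Hsp70 genes had smaller differences: Hspa1a differed by -0.02 ± 0.16 and Hspa1b by -0.08 ± 0.15, and at 0 cGy they were higher in the proton mouse, by 0.87 and 0.68. Hspa1a and Hspa1b are near-identical copies, so the split of reads between them is uncertain. None of the 7 genes was called beyond 0 cGy, where the estimates ran from 0.26 for Cryab to 0.68 for Hspb1, opposite in sign to the difference at 5 to 50 cGy.

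**Figure D3:**
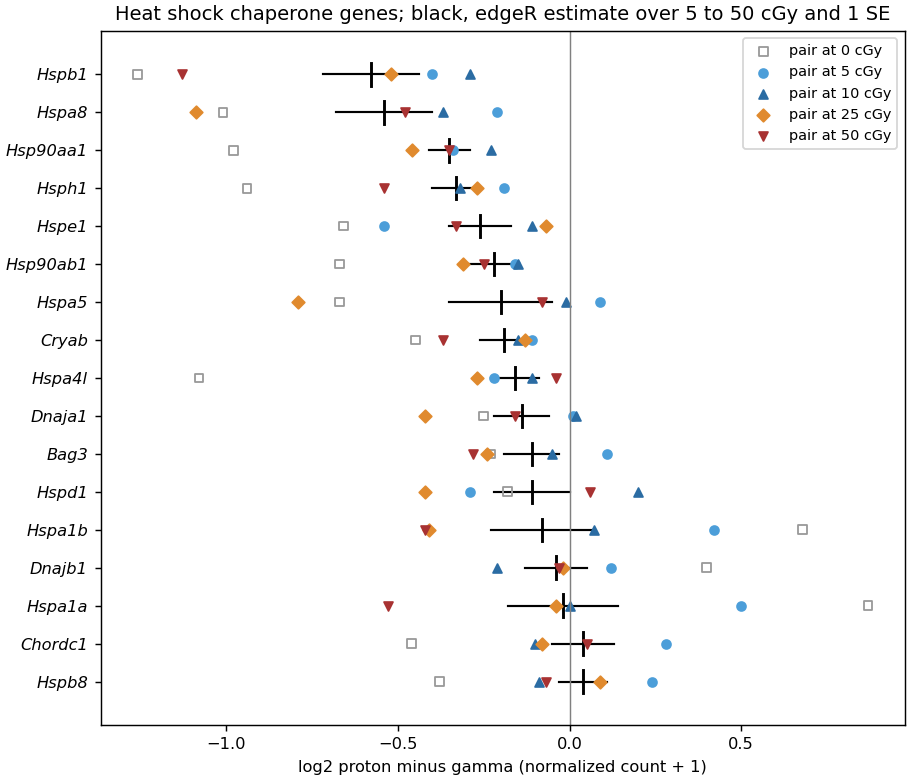
Log2 proton minus gamma difference (x axis, normalized count + 1) of the 17 heat shock chaperone genes in each dose pair, with coloured symbols for 5 to 50 cGy, an open square for 0 cGy, and the edgeR estimate with 1 SE in black. The open squares of the upper 6 genes lie at -0.66 to -1.26, to the left of most or all of their irradiated pairs, and those of Hspa1a, Hspa1b and Dnajb1 lie to the right of 0.

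Since 8 of these genes were lower in all 4 pairs, the promoters of the list were read for the core of the heat shock element, the site of heat shock factor, searched as GAANNTTC on the gene strand (the motif reads the same on both strands). RefSeq promoters (GRCm38.p6, 250 bases before to 50 after the start) were matched for 13 of the 17 genes, and 10 of the 13 had the motif in at least 1 of their promoters. By promoter, some of which overlap, 11 of 18 held it (61.1%), against 7.86% of all 32851 promoters (2582). It was found in 3 of 4 matched genes that were lower in all 4 pairs and in 7 of 9 that were not. The 4 genes without a matched promoter, Hspa8, Hsp90aa1, Hsp90ab1 and Cryab, were all lower in all 4 pairs. The motif did not separate the lower genes from the rest among the matched genes, and for the whole list this cannot be told. A match is a run of letters and not a measured binding site. The stretches below show Hspb1, the member with the largest negative difference, with 2 copies that begin 117 and 97 bases before the start, Hspe1 with 1 copy, and Hspa1a, whose difference was -0.02, with 1 copy 104 bases before the start, and the capitals mark the motif.
Hspb1, chr5:135887772-135887859, plus strand: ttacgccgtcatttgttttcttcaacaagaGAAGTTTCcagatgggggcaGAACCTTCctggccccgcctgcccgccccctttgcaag
Hspe1, chr1:55088034-55088101, plus strand: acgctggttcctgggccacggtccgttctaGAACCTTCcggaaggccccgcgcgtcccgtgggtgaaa
Hspa1a, chr17:34972223-34972290, minus strand: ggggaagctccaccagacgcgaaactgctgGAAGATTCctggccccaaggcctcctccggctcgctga
The copy of Hspe1 lies at 55088064 to 55088071, 84 bases before its start, and the same 8 bases are the copy of Hspd1, the chaperonin transcribed in the opposite direction, 139 bases before that start. Hspe1 was lower in all 4 pairs, while Hspd1 was lower in 2 of 4 (-0.11 ± 0.11).

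No target of p53, whose response is the best known transcriptional answer to radiation, was called different between the types. Of 35 p53 target genes tested, 4 were higher (11.4%) and 2 lower (5.71%) in all 4 pairs, against 5.90% and 8.58% of all genes. Of the 35, 1 was higher and 1 lower at an unadjusted p under 0.05, against 2.35% and 3.64% of all genes. None passed an adjusted p of 0.1. The median log2 difference was 0.09, with pair medians of 0.16, 0.02, 0.01 and 0.03 at 5, 10, 25 and 50 cGy and -0.05 at 0 cGy. Without the pair at 5 cGy the median was 0.01. Against the sham mouse of the same type, the median fold of the 35 genes was 1.10, 1.09, 1.27 and 1.31 in the proton mice at the 4 doses and 0.938, 1.07, 1.24 and 1.33 in the gamma mice. The 5 cGy gamma mouse was thus the single one with a median below its sham.

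Cdkn1a, the p53-induced inhibitor of the cell cycle, measured 566, 542, 1014 and 1006 in the proton mice and 270, 536, 828 and 1072 in the gamma mice, against 336 and 364 at 0 cGy. The pair at 5 cGy differed by 1.06 on the log2 scale and the pair at 10 cGy by 0.02, and the groups overlapped (0.30 ± 0.21, adjusted p = 0.909). Eda2r, a death receptor, also differed most at 5 cGy, at 24.1 in the proton and 5.2 in the gamma mouse, and not in a fixed direction above (0.44 ± 0.34). Mdm2, the ubiquitin ligase of p53, measured 379, 397, 436 and 441 in the proton mice and 343, 353, 385 and 438 in the gamma mice (0.13 ± 0.07, adjusted p = 0.883), with a like gap at 0 cGy, at 366 and 330. Aen, Bax and Ephx1 differed by -0.03 ± 0.09, -0.02 ± 0.09 and 0.05 ± 0.08, Ccng1 by -0.11 ± 0.07, Slc19a2 by 0.12 ± 0.13 and Phlda3 by 0.09 ± 0.13. The study's 19 genes that rise with both types, which were chosen on these same samples and so are not independent evidence of direction, had 18 members tested, 14 of them above 0, with a median of 0.12, and their median fold over sham at 50 cGy was 1.71 in the proton mouse and 1.59 in the gamma mouse.

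**Figure D4:**
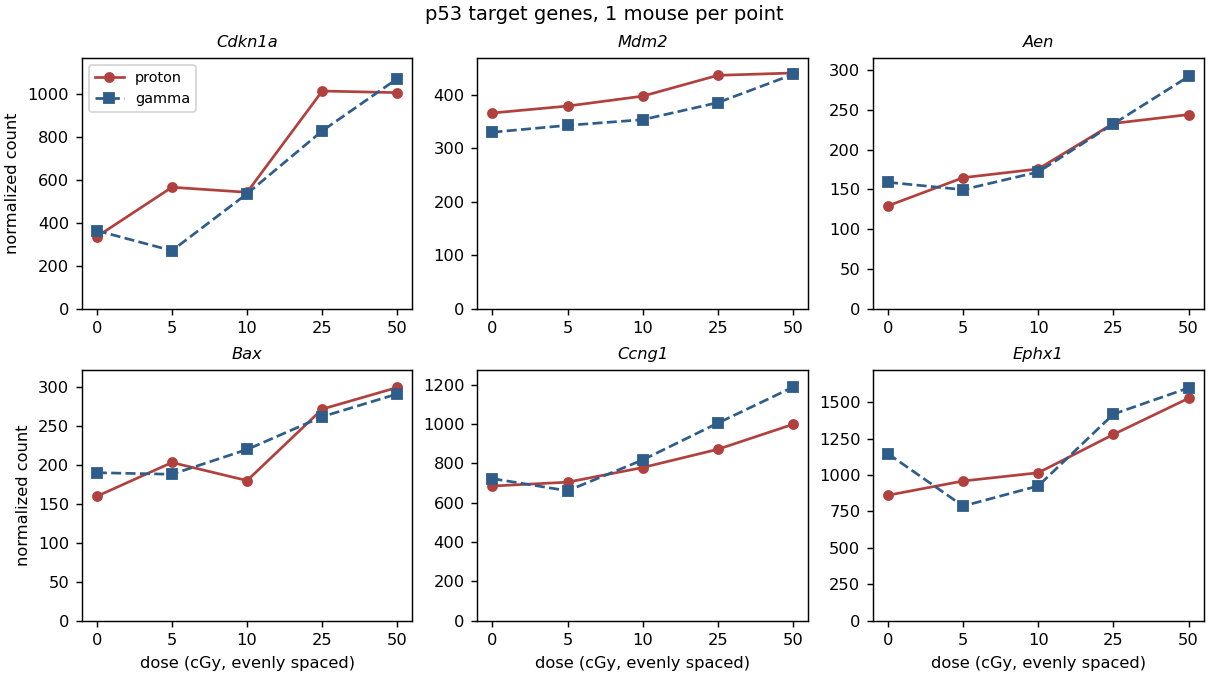
Normalized counts (y axis, from 0) of the p53 targets Cdkn1a, Mdm2, Aen, Bax, Ccng1 and Ephx1 by dose (x axis, cGy, evenly spaced), 1 mouse per point, proton as circles on solid lines and gamma as squares on broken lines. Both types span similar ranges, and the widest gap is that of Cdkn1a at 5 cGy, at 566 against 270.

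The pairs were not alike in their tissue makeup. Erythrocyte markers (6 of 10 listed genes tested, among them the globins) had a mean log2 level of 9.72 in the gamma mouse at 25 cGy and 9.18 in the proton mouse at 50 cGy, but 4.42 and 5.57 in their partners. At 5 and 10 cGy the proton and gamma mice stood at 6.39 and 5.16 and at 4.15 and 3.42, and at 0 cGy both were high, at 8.76 and 9.11. Macrophage markers (15 tested) went with them, at 7.69 in the gamma mouse at 25 cGy and 7.33 in the proton mouse at 50 cGy against 6.06 and 5.67 in their partners, and so did endothelial markers (14 tested), at 8.11 and 8.14 against 7.65 and 7.51. Pecam1, the endothelial adhesion molecule CD31, measured 1741, 2349, 1401 and 3992 in the proton mice and 1427, 1438, 3250 and 1570 in the gamma mice. In a piece of whole tissue, fewer cells of a type and less RNA per cell cannot be told apart.

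The pairs at 25 and 50 cGy stood against each other over many genes. Across 9690 genes with a mean count of 50 or more, the pair differences at 25 and 50 cGy correlated at r = -0.408 and those at 10 and 50 cGy at r = 0.383, a description across genes that share libraries and are not independent. At least 2-fold more in the proton mouse was seen in 128 of these genes at 50 cGy and in 28 at 25 cGy, and at least 2-fold less in 29 and 143. The SD of the log2 pair difference was 0.312 at 0 cGy and 0.257, 0.319, 0.341 and 0.318 at the 4 doses, so the irradiated pairs differed about as widely as the sham pair.

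Without the pair at 25 cGy the test called 67 genes higher (0.516%) and 42 lower (0.324%). Of these 109 genes, 72 had the opposite direction in the pair at 25 cGy and 37 the same, and 50 had the same direction at 0 cGy. The higher calls included, named after their values were seen, Lum, a collagen-binding proteoglycan, at 0.88 (adjusted p = 0.0116) against -0.28 in the pair left out, Fbln2, a matrix protein, at 0.84 against -0.80, Cxcr7, an atypical chemokine receptor, at 1.03 against -1.18, and Gja5, the arterial connexin 40, at 1.33 against -1.86. Cd34 and Selp, markers of endothelium, were at 0.65 and 1.37 against -0.42 and -2.16. The lower calls held Dusp1 at -0.80 (adjusted p = 0.0214), Grip2 at -0.50, Scube3 at -0.53, 2310022B05Rik at -0.62 and Rcan2 at -0.42, which were lower at 25 cGy as well. Hspa8 was among them at -0.35 (adjusted p = 0.0985). The 3 pairs left held the proton mouse at 50 cGy, with its high blood, macrophage and endothelial markers. The part of these markers in the calls was not tested. With the pairs at 5 and 10 cGy alone, 11 genes were called higher and 3 lower, but fewer pairs also make a weaker test. With the erythrocyte marker level as a covariate over all 4 pairs, 12 were called higher and 23 lower. Leaving out the pair at 5, 10 or 50 cGy gave 0 calls in each direction.

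**Figure D5:**
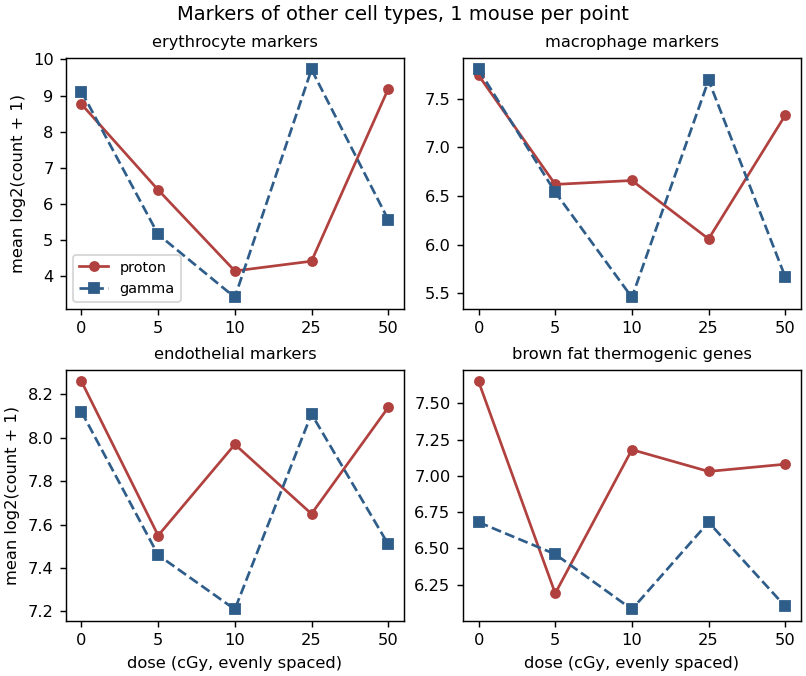
Mean log2(normalized count + 1) of the erythrocyte, macrophage, endothelial and brown fat lists (y axes, not from 0) by dose (x axis, cGy, evenly spaced), 1 mouse per point, proton as circles on solid lines and gamma as squares on broken lines. The gamma mouse at 25 cGy and the proton mouse at 50 cGy stand above their partners in the first 3 panels, and brown fat genes are higher in the proton mouse at 0, 10, 25 and 50 cGy.

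Brown fat genes were higher in the proton mice at all doses but 5 cGy, the sham pair included. Their mean log2 level was 6.19, 7.18, 7.03 and 7.08 in the proton mice and 6.46, 6.08, 6.68 and 6.10 in the gamma mice, against 7.65 and 6.68 at 0 cGy. Ucp1, the uncoupling protein that defines brown fat, measured 164, 742, 941 and 1371 in the proton mice, 272, 204, 377 and 135 in the gamma mice, and 2092 and 469 at 0 cGy (1.49 ± 0.81, adjusted p = 0.896). Of 13 genes tested, 2 were higher in all 4 pairs (15.4%, against 5.90% of all genes). Otop1, a proton channel of brown fat, measured 23.1, 53.6, 64.2 and 42.6 in the proton mice and 20.6, 14.5, 24.5 and 15.5 in the gamma mice (1.24 ± 0.29, adjusted p = 0.424), and 111 and 26.8 at 0 cGy. Elovl3, a fatty acid elongase, was higher by 1.89 ± 0.54 at a mean count of 6. The oxidative phosphorylation genes had 22 of 24 members above 0 (median 0.07), with pair medians of 0.38 at 0 cGy and -0.20, 0.25, 0.06 and 0.20 at the 4 doses, of the same sign as those of the brown fat list in all 5 pairs. With the brown fat level as a covariate, the test over 5 to 50 cGy called 2 genes higher and 2 lower. White fat genes were more uneven, with pair medians of 0.75 at 0 cGy and -0.54, 1.80, 0.08 and 0.17 at the 4 doses. Their medians, and those of the antioxidant genes, also had the signs of the brown fat list in all 5 pairs.

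Contractile and ribosomal genes had small negative differences. All 16 smooth muscle genes had a negative log2 difference, with a median of -0.08 and a range of -0.22 to -0.01, and 4 were lower in all 4 pairs (25.0%, against 8.58% of all genes). With library totals in place of TMM the smooth muscle median was -0.04. Cnn1, the actin-binding calponin, measured 12610, 12936, 12926 and 11870 in the proton mice and 15161, 14879, 12983 and 15686 in the gamma mice (-0.22 ± 0.08, adjusted p = 0.768). Acta2 differed by -0.20 ± 0.09 and Myh11 by -0.08 ± 0.10. The 4 pair medians were -0.12, -0.12, 0.12 and -0.25, so the pair at 25 cGy went against the other 3, and the median at 0 cGy was -0.00. All 30 cytosolic ribosomal protein genes had a negative difference too, with a median of -0.07, and 9 of the 30 were lower in all 4 pairs, against the same 8.58% of all genes. With library totals in place of TMM the ribosomal median was -0.02 and 1 of 30 was lower in all 4 pairs, so this direction depended on the scaling. Myh7, the slow myosin of heart and skeletal muscle, was higher in all 4 pairs at 37.2, 9.9, 7.9 and 5.8 against 1.0, 2.1, 2.0 and 3.1, with 12.7 and 0 at 0 cGy (2.61 ± 0.63, adjusted p = 0.460), while the 12 striated muscle genes tested had a median of -0.03.

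Clock genes, which follow the time of day and of sampling, included both directions. Of 18 tested, 3 were higher (16.7%) and 4 lower (22.2%) in all 4 pairs, against 5.90% and 8.58% of all genes. Arntl and Clock, the activators of the clock, were lower by 0.22 ± 0.08 and 0.16 ± 0.06 in log2, and their repressor Bhlhe40 was higher by 0.66 ± 0.21, with 260, 268, 178 and 110 in the proton mice and 127, 115, 154 and 101 in the gamma mice. Gm129, a further repressor, measured 3.0, 3.0, 1.0 and 3.9 in the proton mice and 8.3, 8.3, 4.9 and 8.3 in the gamma mice at a mean count of 5, near the filter. Per1 had no common direction (-0.04 ± 0.49), at 254, 289, 442 and 138 against 243, 414, 171 and 294. Dbp differed by 0.25 ± 0.16. Fkbp5, a glucocorticoid target, measured 387, 97.4, 131 and 68.8 in the proton mice and 81.6, 133, 79.4 and 76.6 in the gamma mice (0.65 ± 0.57), so the proton mouse at 5 cGy stood far above the other 7.

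No gene passed an adjusted p of 0.1 for a change of the proton minus gamma difference with dose. The edgeR test of radiation type by log2 dose called 0 genes upward (0%) and 0 downward (0%), with 103 upward (0.794%) and 187 downward (1.44%) at an unadjusted p under 0.05, and DESeq2 called 0 in each direction at an adjusted p of 0.1. The 5 genes with the smallest p all crossed over between types. Npr3, the natriuretic peptide clearance receptor, measured 289, 192, 200.4 and 144 in the proton mice and 210, 188, 251 and 306 in the gamma mice, a change of the log2 difference of -0.44 ± 0.07 per doubling of dose. Dio2, the deiodinase that activates thyroid hormone, changed by -0.40 ± 0.07, from 828 against 352 at 5 cGy to 471 against 564 at 50 cGy, and Aspn, the matrix protein asporin, by -0.27 ± 0.05. Mcm6, a subunit of the replicative helicase, changed by 0.26 ± 0.05, from 418 against 566 at 5 cGy to 598 against 438 at 50 cGy, and Nav2, a cytoskeletal guidance protein, by 0.36 ± 0.07. Their adjusted p was 1 in each case.

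The remaining lists varied in how many members had 1 direction in all 4 pairs. Of 28 initiation factor and mTOR genes, 5 were higher (17.9%) and 4 lower (14.3%) in all 4 pairs, against 5.90% and 8.58% of all genes, with a median of -0.03, and the named members Rictor and Eif4ebp2 were lower by 0.18 ± 0.07 and 0.17 ± 0.07 in log2. Of 23 DNA damage sensing and repair genes, 1 was higher and 0 lower in all 4 pairs (median 0.03), of 22 antioxidant genes 1 and 0 (median 0.03), and of 15 fibroblast and collagen genes 1 and 0 (median -0.02). Of 23 angiogenic growth factor genes, 0 were higher and 2 lower (median 0.06), with Mef2c at -0.19 ± 0.07. Interferon-stimulated genes had pair medians of the same signs as the macrophage markers, at 0.07, 0.43, -0.83 and 0.41 at the 4 doses. Of 9 inflammatory chemokine and adhesion genes tested, Cx3cl1 was higher in all 4 pairs (0.39 ± 0.12) and the feedback inhibitors Nfkbia and Tnfaip3 lower (-0.25 ± 0.07 and -0.32 ± 0.14), none past an adjusted p of 0.1. Cell proliferation genes had a median of 0.33 over 13 members, 2 higher and 1 lower in all 4 pairs, and glucocorticoid-induced genes a median of 0.10 over 15, with Dusp1 the single member lower in all 4 pairs. The 8 neuronal and Schwann cell markers tested had a median of 0.16, with none of one direction in all 4 pairs.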

How the data were processed

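RNA of the thoracic aorta of 20 mice was sequenced by the authors with the Illumina TruSeq kit after poly(A) selection, as stranded pairs of reads of 100 bases. The submitters' processing notes name CASAVA 1.8.1 and STAR 2.5.2a, with which reads were aligned to mm9. The authors then resampled the libraries to a common depth with the PORT pipeline and deposited sense-strand read counts per gene, 1 library per mouse. The gene annotation behind the counts was not given in the sources used here; symbols and mm9 coordinates were taken from the GENCODE M1 annotation, whose intervals the deposited ones exceed by 202 bases on each side.

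The deposited counts were tested without further filtering of reads. Genes with a mean count of 5 or more over the 8 mice were kept, and edgeR 4.0.16 (R 4.3.3) fitted a robust quasi-likelihood model with TMM scaling, dose as a block and radiation type, with Benjamini-Hochberg adjustment over all 12977 genes and a threshold of 0.1, the threshold of the study. A second fit added the pair at 0 cGy and another an interaction of type with log2 dose. Pair differences and list levels used log2(normalized count + 1). The block stands for the dose, which the labels give, and no litter, cage or day that a pair would share is given in the sources used here. Named genes were the 10 higher and 10 lower genes with the smallest p among those with a mean count of 20 or more and the same direction in all 4 pairs, the 5 with the smallest p of each other test, list members with the same direction in all 4 pairs and an unadjusted p under 0.05, a fixed set of 18 genes, and any gene called. Genes outside this rule are members of the described lists or are said to be chosen after their values were seen. The 25 gene lists, the rule and the comparison were chosen with earlier results of these data known. No list was tested. The scripts were tested on simulated counts.

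Alternatives were DESeq2 1.42.0, library totals without TMM, other count filters (1 count, a mean of 50), other thresholds (0.05, 0.2), pseudocounts of 1 and 10 for the list medians, no robust estimation, no block, all 20 libraries, marker scores of brown fat, striated muscle and erythrocytes as covariates, a correction for GC content and length (95.8% of tested genes had a value), and leaving out each pair. The erythrocyte covariate and the fit without the pairs at 25 and 50 cGy were chosen after seeing the data. The ± values are SEs taken from the edgeR test and include variation between mice, whereas the floor of 3 counts covers counting error only.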

Additional observations from a re-analysis of the deposited data

Results flagged for a closer look

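In 196 groups of 4 mice (1 radiation type at 5, 10, 25 and 50 cGy, for each named gene and each list level), 10 had a mouse whose gap to the nearest other exceeded Dixon's 95% critical value, which chance gives in about 1 of 20 groups. The 4 mice of a group differ in dose, so such a gap can be a mouse or a dose.

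The gamma mouse at 25 cGy stood apart in 4 of them. Its Pecam1 count was 3250 against 1427 to 1570 in the other 3 gamma mice, and its inflammatory chemokine and adhesion level was 7.19 against 6.31 to 6.34 on the log2 scale. Its Cryab count was 1547 against 1749 to 1757, and its Gm129 count was 4.9 against 8.26 to 8.29. The proton mouse at 5 cGy stood apart in 3, with a Myh7 count of 37.2 against 5.81 to 9.94, an Nr4a2 count of 124 against 56.6 to 66.8 and a brown fat level of 6.19 against 7.03 to 7.18. The other 3 were Tgfbr3 in the gamma mouse at 5 cGy, at 428.5 against 508 to 517, Fkbp5 in the gamma mouse at 10 cGy, at 133 against 76.6 to 81.6, and the neuronal and Schwann cell level of the proton mouse at 50 cGy, at 4.33 against 5.06 to 5.15.

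The difference between radiation types in Dusp1 at 5 to 50 cGy differed from that at 0 cGy by -2.02 on the log2 scale in the edgeR interaction test (adjusted p = 0.0669). Dusp1 was lower in the proton mouse in 4 of 4 pairs at 5 to 50 cGy and higher in the pair at 0 cGy. It was also higher in 3 of 5 pairs at 75 to 200 cGy.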

How the results depend on the processing

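The main limits are 1 mouse per dose and type, 1 pair at 0 cGy, and pairs that differ in blood, macrophage, endothelial and fat markers. For single genes, 1312 of 1391 values kept their side of the threshold without a counted change of sign, 73 passed it and 5 lost it. A gene that DESeq2 left without an adjusted p, such as Sfrp4, was counted as not passing. In 1 a change of sign was counted: Ccng1, at -0.11, was 0.01 with the pairs at 5 and 10 cGy alone. A change of sign was counted only where the main estimate exceeded its SE or the gene was called. Smaller estimates that crossed 0 are among the values kept. Of 450 list medians 434 moved by less than the spread between pairs. This spread is the list's own SD of pair medians, so uneven lists could move far and still be counted as kept. It was 3.891 for erythrocyte and 1.446 for macrophage markers. Their medians of 0.27 and 0.25 became 2.5 and 1.01 without the pair at 25 cGy. Without the pair at 50 cGy they became -1.71 and -0.19. The cause of the changes below was not tested.

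Genes called higher at 5 to 50 cGy numbered 0 and became 3 with DESeq2, 2 with the brown fat covariate, 12 with the erythrocyte covariate, 4 with genes of at least 1 count, 11 without the pairs at 25 and 50 cGy, and 0 to 67 when 1 pair was left out. Genes called lower numbered 0 and became 42, 2, 23, 17, 3 and 0 to 42 in the same order, and all calls from leaving out 1 pair came without the pair at 25 cGy. Beyond 0 cGy, the 0 higher calls became 6 without the pairs at 25 and 50 cGy and 0 to 12 with 1 pair left out. The 1 lower call became 6 without those pairs and 0 to 6 with 1 pair left out, and 0 with all 20 libraries, without robust estimation, at an adjusted p of 0.05 and with no replicate block. Without the replicate block, in which mice of one dose are paired, the test at 5 to 50 cGy gave 0 calls in each direction, as with it. Across 9690 genes, deviations from the group mean correlated between the proton and gamma mouse of the same dose at 0.354, -0.114, -0.333 and -0.106 for 5, 10, 25 and 50 cGy. Of the 4 proton mice, 1 correlated best with its own dose, that at 5 cGy. The mice of a pair thus shared a deviation at 5 cGy and not at 10, 25 or 50 cGy.

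Leaving out 1 pair gave medians of 0.01 to 0.08 for p53 targets (0.09 with all), 0.13 to 0.27 for neuronal and Schwann cell markers (0.16), -0.07 to 0.12 for clock genes (-0.01) and -0.03 to -0.01 for initiation factor and mTOR genes (-0.03). With genes of a mean count of 50 or more the neuronal and Schwann cell median was 0.03 and the proliferation median -0.08. The brown fat covariate gave 0.09 for clock genes, -0.19 for inflammatory genes and -0.01 for initiation factor and mTOR genes. The last were at 0.02 without TMM and with pseudocounts of 1 and 10, and at -0.01 without the pairs at 25 and 50 cGy, where heat shock genes were at -0.05. At an unadjusted p under 0.05, 576 genes were higher and 263 lower without TMM, and 96 and 188 with DESeq2. Beyond 0 cGy and across dose, DESeq2 gave 53 higher and 85 lower, and 10 upward and 15 downward.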
